A study of Homo sapiens with 11 samples.

Results

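The genes described here are 10 chaperones and folding factors of the endoplasmic reticulum (ER) that are known targets of the transcription factor ATF6. They were listed by name, by a rule that uses no measured value, as HSPA5, HSP90B1, CALR, PDIA4, PDIA6, DNAJB11, SDF2L1, HYOU1, CRELD2 and MANF. The choice was nevertheless made with earlier results of these data known. All 10 were found in the deposited count table of 27671 genes. All 10 also passed the filter on low counts, which left 15591 genes for testing.

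The ER folds secreted and membrane proteins with the help of chaperones that bind unfolded stretches, of enzymes that make and reshuffle disulfide bonds, and of lectins that hold glycoproteins. When unfolded protein accumulates, the sensors ATF6, IRE1 and PERK start the unfolded protein response. ATF6 travels to the Golgi, where site-1 and site-2 proteases cut it, and its freed cytosolic part enters the nucleus and switches on ER chaperone genes through promoter motifs such as the ER stress response element (ERSE). PERK works by another route, since it phosphorylates eIF2 and so feeds the integrated stress response (ISR), through which the factor ATF4 is made.

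The cells were HEK293T, an immortalised line from human embryonic kidney that expresses the SV40 large T antigen, and their polyadenylated RNA was sequenced. The groups were 10 µM A8 with ISRIB (3 libraries), 10 µM A8 alone (3 libraries), DMSO with ISRIB, called ISRIB alone below (2 libraries), and DMSO, the vehicle (3 libraries). A8 is known here only by this code name. ISRIB, a compound that binds eIF2B and so dampens the ISR, has no dose in the labels. The treatment lasted 8 h by the sample labels and 4 h by the protocol, and which of these holds is not known. Replicate 2 of ISRIB alone was left out by the submitters as a sample of poor quality. The columns of the remaining 2 could not be matched to single numbered samples, so they are called a and b. All groups come from this single line, which is not a secretory tissue.

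Libraries held 34072107 to 35318111 counts each, with 17892 to 18017 genes detected. The line's markers KRT8, KRT18, VIM, CDH2, NEFL and NEFM were present in every library, with VIM at 625 to 748 CPM (counts scaled for library size), while EPCAM had 5 to 29 counts. Of 9 markers of other cell types, PTPRC, PECAM1, CD3E, INS and HBB had 0 counts in all libraries. The summed level of the 9 was 16.5 to 19.6 CPM with A8 and ISRIB, 15.7 to 18.4 CPM with A8, 18.0 to 18.3 CPM with ISRIB alone and 18.4 to 21.9 CPM with DMSO. Nearly all of it was COL1A1, and without that gene the sum stayed between 0.116 and 0.398 CPM. As a check of the treatments, CHAC1, a target of ATF4 that degrades glutathione, rose to 17.0 ± 3.7 CPM with A8, against 5.22 ± 0.51 CPM with DMSO (SD, n = 3 each). Its log2 fold change was 1.70 (edgeR adjusted p = 3.67e-05).

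The promoters of the 10 genes are shown first, because motifs of this kind are a known route by which ATF6 reaches its targets. They were read from RefSeq windows on GRCh38.p14 that run from 250 bases before to 50 bases after each annotated start, and they were searched on both strands. The motifs were ERSE (CCAAT, a gap of 9 bases, then CCACG), ERSE-II (ATTGG, a gap of 1 base, then CCACG) and the core of the unfolded protein response element (TGACGTGG). ERSE was matched in 5 of the 10 genes and ERSE-II in 2, against 0.0916% and 0.0696% of all 27305 genes with a window. Either motif was matched in 7 of the 10, against 0.161% of genes. The 10 were listed as known targets of ATF6, which acts through such motifs, so a high share follows in part from the choice. It is a description and no independent result, and the shares over all genes include the 10. By windows, of which a gene can have several, the shares over all 35116 were 0.0769%, 0.0541% and 0.131%. Each line gives the motif in capitals, on the strand of the gene, with 14 bases on either side. Where the capitals begin with CGTGG, the motif lies on the opposite strand.
HSPA5, chr9:125241377-125241423, minus strand: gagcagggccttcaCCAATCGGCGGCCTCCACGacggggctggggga
HSP90B1, distal, chr12:103930202-103930248, plus strand: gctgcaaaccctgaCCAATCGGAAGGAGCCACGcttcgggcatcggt
HSP90B1, proximal, chr12:103930307-103930353, plus strand: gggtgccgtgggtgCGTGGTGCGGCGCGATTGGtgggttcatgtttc
CALR, chr19:12938370-12938416, plus strand: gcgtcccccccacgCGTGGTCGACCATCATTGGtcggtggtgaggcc
PDIA6, chr2:10812839-10812885, minus strand: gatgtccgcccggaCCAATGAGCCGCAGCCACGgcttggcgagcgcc
CRELD2, chr22:49918540-49918586, plus strand: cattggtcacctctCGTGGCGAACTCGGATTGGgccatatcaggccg
SDF2L1, chr22:21642100-21642138, plus strand: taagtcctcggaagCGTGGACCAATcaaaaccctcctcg
HYOU1, distal, chr11:119057366-119057404, minus strand: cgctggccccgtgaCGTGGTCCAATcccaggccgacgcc
HYOU1, proximal, chr11:119057260-119057298, minus strand: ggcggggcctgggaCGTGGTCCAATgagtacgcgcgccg

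The first 6 of these lines are ERSE matches and the last 3 are ERSE-II matches. The capitals began 66 bases before the start in HSPA5, 86 in PDIA6 and 80 in CRELD2, so these lie close to the start. In HSP90B1 the pair of matches began 194 and 89 bases before the start, and in CALR the match began 225 bases before it. SDF2L1 had its match 188 bases before the start, and HYOU1 had matches 185 and 79 bases before it. The distal HYOU1 match overlaps the only match of the third motif among the 10 genes, which was found in 0.729% of all windows. None of the 3 motifs was matched in the windows of PDIA4, DNAJB11 and MANF, which says only that these letters are not in those windows. A match is a description of the letters and was not tested as a binding site.

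**Figure D1:**
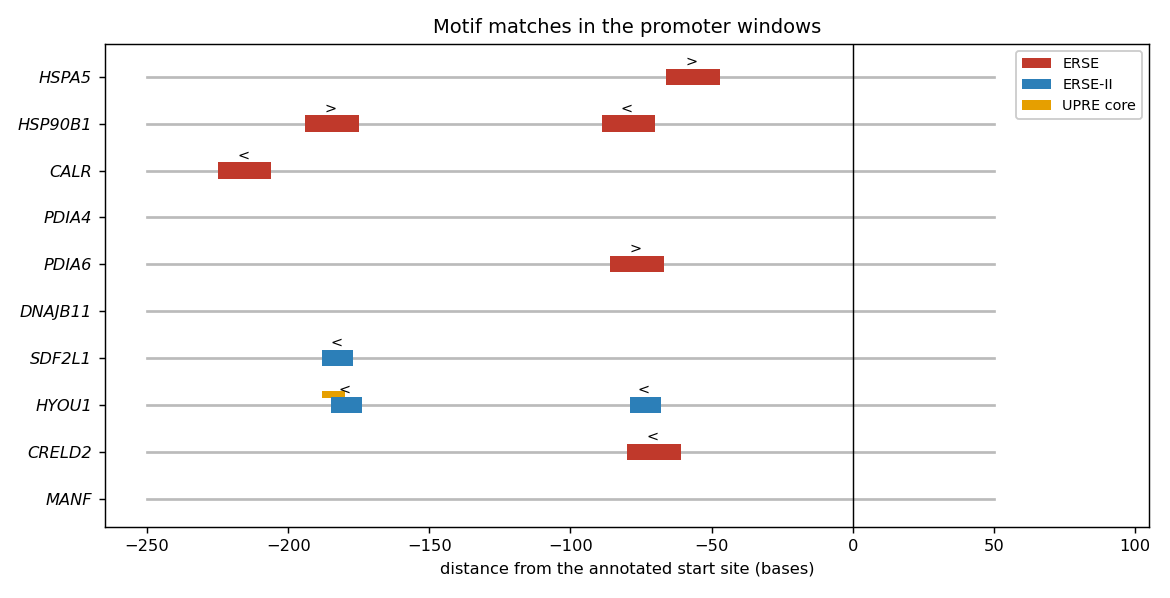
Position of the ERSE, ERSE-II and core motif matches (boxes) in the promoter windows of the 10 chaperone genes (rows), in bases from the RefSeq start on the x axis. Arrows give the strand of the motif. Matches lie between 225 and 48 bases before the start, and PDIA4, DNAJB11 and MANF have no match.

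Together the 10 genes took 0.293 to 0.298% of all counts with A8 and ISRIB, 0.284 to 0.304% with A8, 0.340 to 0.363% with ISRIB alone and 0.329 to 0.344% with DMSO. Every library with A8, with or without ISRIB, thus lay below every library without it. Levels were compared between genes per kilobase of annotated transcript, and once more per kilobase of coding sequence, since the parts of a gene that were counted are not given. CALR, a lectin that binds glycoproteins and calcium, was the most abundant with DMSO on both scales, at 497 ± 12.0 CPM per transcript kilobase (SD, n = 3). HSP90B1 (GRP94), the HSP90-type chaperone of the ER, followed at 238 ± 6.49 CPM per transcript kilobase. HSPA5 (BiP), the main HSP70-type chaperone there, stood at 143 ± 6.43 CPM per transcript kilobase, while per coding kilobase the pair overlapped at 285 ± 12.8 for HSPA5 and 282 ± 7.70 for HSP90B1. PDIA4, PDIA6 and MANF had 119.5 ± 4.13, 110.2 ± 4.06 and 87.7 ± 6.05 CPM per transcript kilobase. SDF2L1 had 66.0 ± 7.14 CPM per transcript kilobase, and CRELD2 at 53.2 ± 4.65 and HYOU1 at 51.3 ± 2.16 overlapped within 1 SD. DNAJB11 was lowest on this scale at 30.5 ± 1.77 CPM per transcript kilobase, but overlapped CRELD2 per coding kilobase, at 68.2 ± 3.95 and 68.1 ± 5.95. The order of neighbours therefore depends on the length used.

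**Figure D2:**
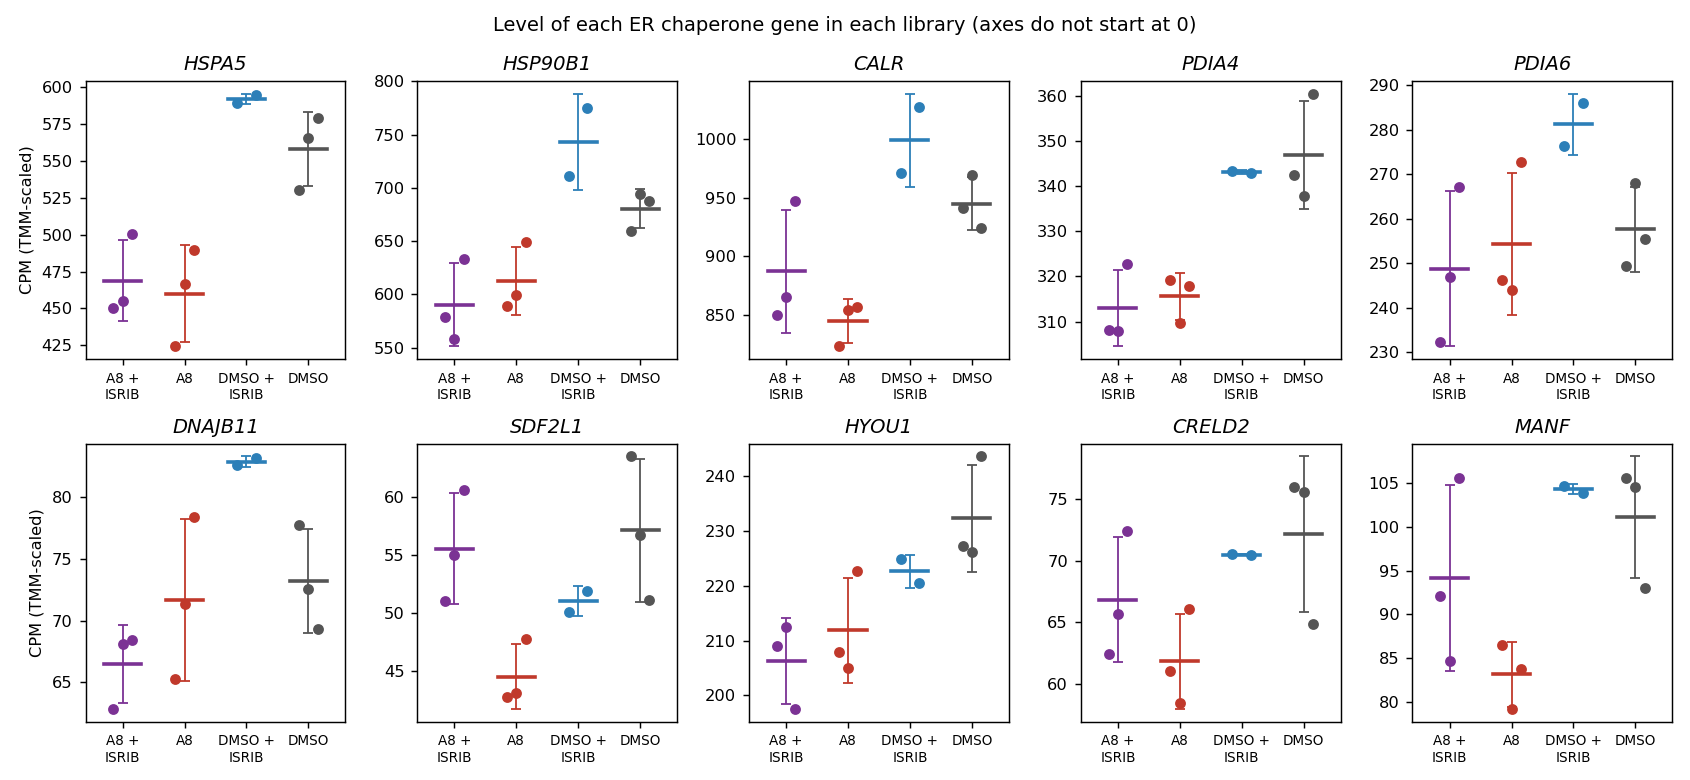
CPM of each of the 10 chaperone genes in each library (points, 1 panel per gene, y axes not starting at 0 and differing between panels), by treatment group on the x axis, with group means and SD. HSPA5 with A8 sits at 424 to 489 CPM, below the 530.4 to 579 CPM of DMSO, while PDIA6 and DNAJB11 overlap between these groups.

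A8 alone was compared with DMSO first. All 10 had a log2 fold change below 0, with a median of -0.16, where 48.2% of all tested genes lay below 0 and their median was 0.0069. None was called by edgeR's quasi-likelihood test at an adjusted p under 0.05, a threshold that 22 of all genes (0.141%) passed in either direction. At an unadjusted p under 0.05, 8 of the 10 were lower with A8, against 5.34% of all genes. In 7 of the 10, every A8 library lay below every DMSO library, against 8.13% of all genes. DESeq2's Wald test called HSPA5 and SDF2L1 lower, where it called 0.682% of the genes it gave an adjusted p. Levels are per total counts of a culture, so fewer cells of a kind and less RNA per cell cannot be told apart.

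Among the BiP and GRP94 class, HSPA5 had 424, 466 and 489 CPM with A8, against 530.4, 565 and 579 CPM with DMSO. The A8 libraries were all lower and the groups did not overlap. The difference of 17.6% corresponded to a log2 fold change of -0.28 (SE 0.066, 95% interval -0.42 to -0.14), with an edgeR adjusted p of 0.124. The DESeq2 adjusted p was 0.00571. In the authors' deposited table, HSPA5 had a log2 fold change of -0.28 and an adjusted p of 0.00992, and it was the only one of the 10 genes called there, where 0.139% of genes were called lower. The edgeR adjusted p of HSPA5 was 0.0205 without a filter on low counts and 0.047 with offsets for GC content, and over all alternatives the adjusted p ran between 0.00571 and 0.424. HSPA5 therefore passed the threshold with some of the settings and missed it with others.

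HSP90B1, which folds integrins and Toll-like receptors among others, had 589, 599.8 and 649 CPM with A8, against 659.5, 695 and 687 CPM with DMSO. The groups lay apart, though by little, and the log2 fold change was -0.15 (SE 0.065; edgeR adjusted p = 0.435). CALR had 823, 854 and 857 CPM with A8, against 941, 969.5 and 924 CPM with DMSO. The A8 libraries again lay below all DMSO libraries, with a log2 fold change of -0.16 (SE 0.059; edgeR adjusted p = 0.368).

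The BiP partners SDF2L1, HYOU1 and DNAJB11 were spread over most of the range of the list. SDF2L1, an ER protein found in complexes with DNAJB11 and BiP, had 42.7, 43.1 and 47.7 CPM with A8, against 63.5, 56.7 and 51.2 CPM with DMSO. The groups did not overlap, and the spread was wider among the DMSO libraries. Its log2 fold change of -0.36 (SE 0.085, 95% interval -0.54 to -0.18) was the lowest of the 10, with an adjusted p of 0.127 in edgeR and 0.0138 in DESeq2. The authors' deposited table, whose libraries are not given, had an adjusted p of 0.243 for SDF2L1. HYOU1, a nucleotide exchange factor of BiP, had 208, 205 and 223 CPM with A8, against 227, 226 and 244 CPM with DMSO. The groups were apart, with a log2 fold change of -0.13 (SE 0.058; edgeR adjusted p = 0.449). DNAJB11 (ERdj3), the HSP40-type partner that brings substrates to BiP, had 65.3, 71.4 and 78.4 CPM with A8, against 77.7, 72.5 and 69.3 CPM with DMSO. These groups overlapped fully, and the log2 fold change was -0.03 (SE 0.073).

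The disulfide isomerases differed from each other. PDIA4 had 319, 309.7 and 318 CPM with A8, against 343, 338 and 361 CPM with DMSO, without overlap, and a log2 fold change of -0.14 (SE 0.054; edgeR adjusted p = 0.405). PDIA6 had 246, 244 and 273 CPM with A8, against 249, 268 and 255 CPM with DMSO. Its groups overlapped and its log2 fold change was -0.02 (SE 0.065), with a 95% interval of -0.16 to 0.12. Of the secreted or ER-resident stress factors, MANF, which binds BiP and protects cells under ER stress, had 86.5, 79.2 and 83.7 CPM with A8, against 105.6, 104.6 and 93.0 CPM with DMSO. The groups did not overlap, and the log2 fold change was -0.28 (SE 0.078; edgeR adjusted p = 0.207). CRELD2, an ER protein with EGF-like domains, had 61.0, 58.4 and 66.1 CPM with A8, against 76.0, 75.6 and 64.9 CPM with DMSO. One DMSO library lay within the A8 values, so the groups overlapped, and the log2 fold change was -0.22 (SE 0.077; edgeR adjusted p = 0.335).

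The same comparison was then made in the presence of ISRIB. There, 9 of the 10 genes had a log2 fold change below 0 in A8 with ISRIB against ISRIB alone, with a median of -0.16, where 49.5% of all tested genes lay below 0 and their median was 0.0019. None was called by edgeR, which called 2 of all genes (0.0128%). At an unadjusted p under 0.05, 6 were lower, against 3.57% of all genes. In 7 of the 10 the libraries of A8 with ISRIB lay below both libraries of ISRIB alone, against 12.3% of all genes. DESeq2 called HSPA5, HSP90B1 and DNAJB11 lower, with adjusted p of 0.0058, 0.005 and 0.0495, where it called 0.154% of genes lower.

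HSPA5 had 451, 455 and 501 CPM with A8 and ISRIB, against 589.6 and 595 CPM with ISRIB alone. The groups did not overlap, and the log2 fold change was -0.34 (SE 0.073, 95% interval -0.49 to -0.18; edgeR adjusted p = 0.211). HSP90B1 had 579, 558 and 634 CPM with A8 and ISRIB, against 711 and 775 CPM with ISRIB alone, also without overlap. Its log2 fold change was -0.33 (SE 0.072; edgeR adjusted p = 0.211). The edgeR adjusted p was 0.336, 0.662 and 0.0466 without library 1, 2 or 3 of A8 with ISRIB. With offsets for GC content the log2 fold change of HSP90B1 was -0.28 (edgeR adjusted p = 0.447). DNAJB11 had 62.8, 68.1 and 68.4 CPM with A8 and ISRIB, against 82.6 and 83.2 CPM with ISRIB alone. This gene, whose groups overlapped without ISRIB, was apart here, with a log2 fold change of -0.32 (SE 0.081; edgeR adjusted p = 0.273). CALR, PDIA4 and PDIA6 also had groups that did not overlap, with log2 fold changes of -0.17, -0.13 and -0.18. So did HYOU1 at -0.11, while MANF at -0.15 and CRELD2 at -0.08 overlapped. SDF2L1 had the only value above 0, at 51.1, 55.0 and 60.6 CPM with A8 and ISRIB, against 50.1 and 51.9 CPM with ISRIB alone. The groups overlapped, and the log2 fold change was 0.12 (SE 0.095, 95% interval -0.08 to 0.32). With offsets for GC content it was 0.0069.

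**Figure D3:**
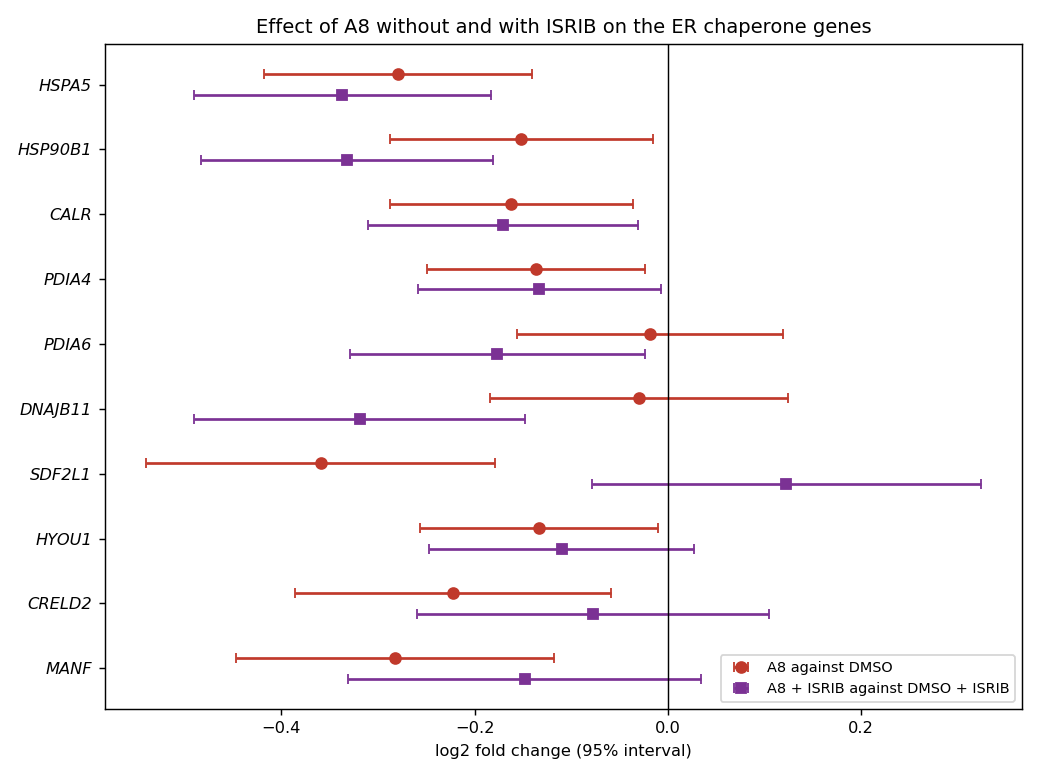
Log2 fold changes of the 10 chaperone genes with 95% intervals (bars) for A8 with ISRIB against ISRIB alone (squares) and for A8 against DMSO (circles). With ISRIB 9 of the 10 genes lie below 0 and without it all 10 do, and SDF2L1 is at 0.12 with ISRIB and at -0.36 without it.

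The difference between these effects was tested as an interaction, which is the log2 effect of A8 with ISRIB minus that without it. No gene of the 10 was called, where edgeR called 4 of all genes (0.0257%), and at an unadjusted p under 0.05 there were 2 of the 10, SDF2L1 higher and DNAJB11 lower, against 8.48% of all genes in either direction. SDF2L1 had an interaction of 0.48 (SE 0.128, 95% interval 0.21 to 0.75), with an adjusted p of 0.355 in edgeR and 0.0708 in DESeq2. DNAJB11 had an interaction of -0.29 (95% interval -0.52 to -0.06; edgeR adjusted p = 0.518). For HSPA5 the interaction was -0.06 with a 95% interval of -0.27 to 0.15, so a difference of its A8 effect with ISRIB was not detectable, and changes within that interval are compatible with the data. PDIA4 and CALR had interactions of 0.0035 and -0.0091, with intervals of -0.17 to 0.17 and -0.20 to 0.18.

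ISRIB alone against DMSO gave a log2 fold change above 0 in 6 of the 10 genes, with a median of 0.06. Of all tested genes, 49.5% lay below 0 and their median was 0.0022. With offsets for GC content only HYOU1, 1 of the 10, lay below 0. None was called by edgeR, which called 0 of all genes (0%) in this comparison, although 1494 (9.58%) passed at an unadjusted p under 0.05 and DESeq2 called 5 higher and 46 lower. DNAJB11 was the only one of the 10 genes under an unadjusted p of 0.05, at 82.6 and 83.2 CPM with ISRIB alone, against 77.7, 72.5 and 69.3 CPM with DMSO. Its libraries did not overlap, and the log2 fold change was 0.18 (SE 0.081; edgeR adjusted p = 0.507). In all, 5 of the 10 genes were higher with ISRIB alone without overlap, against 2168 of all 15591 genes. HYOU1, 1 of the 10, was lower without overlap, against 2349 of all genes. SDF2L1 had the lowest value, a log2 fold change of -0.16 (SE 0.095), which was 0.0040 with offsets for GC content.

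In A8 with ISRIB against A8, 5 of the 10 genes lay above 0, with a median log2 fold change of 0.0076. Of all tested genes, 50.3% lay below 0 and their median was -0.00085. None of the 10 was called, where edgeR called 28 of all genes (0.18%), and 2 of the 10, SDF2L1 and MANF, were higher at an unadjusted p under 0.05, against 2.73% of all genes. SDF2L1 had 51.1, 55.0 and 60.6 CPM with A8 and ISRIB, against 42.7, 43.1 and 47.7 CPM with A8. The groups did not overlap, and the log2 fold change was 0.32 (SE 0.085; edgeR adjusted p = 0.387). MANF had 92.2, 84.6 and 106 CPM with A8 and ISRIB, against 86.5, 79.2 and 83.7 CPM with A8, with overlap and a log2 fold change of 0.18 (edgeR adjusted p = 0.816). Without library 3 of A8 with ISRIB, MANF stood at 0.09. The other 8 genes had log2 fold changes between -0.11 and 0.11. For HSPA5 the value was 0.03 with a 95% interval of -0.11 to 0.17. In the same comparison CHAC1 fell to 4.11 ± 0.22 CPM with A8 and ISRIB, against 17.0 ± 3.7 CPM with A8 (edgeR adjusted p = 1.49e-06).

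Against DMSO, A8 with ISRIB gave values below 0 in all 10 genes, with a median of -0.13, and this comparison shares its DMSO libraries with the first. Of all tested genes, 48.9% lay below 0 and their median was 0.0040. With offsets for GC content, 9 of the 10 lay below 0. None of the 10 was called, where edgeR called 3 of all genes (0.0192%). At an unadjusted p under 0.05, 4 were lower, against 4.04% of all genes, and in 5 the groups did not overlap, against 6.57%. HSPA5 had a log2 fold change of -0.25 (SE 0.066), HSP90B1 of -0.21 (SE 0.065), HYOU1 of -0.17 (SE 0.058) and PDIA4 of -0.15 (SE 0.054). SDF2L1, which was lowest with A8 alone, stood at -0.04 (SE 0.085).

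The 10 genes resembled each other across libraries to different degrees. As a description over 11 libraries that share their treatments, CALR had the highest Pearson correlation with the mean of the other 9 genes (r = 0.937), followed by HSPA5 (0.903) and HSP90B1 (0.856). CRELD2, MANF, PDIA4, PDIA6 and DNAJB11 lay between 0.832 and 0.655, and HYOU1 (0.512) and SDF2L1 (0.489) were lowest. The closest pair was HSPA5 and HSP90B1 (r = 0.931), and the least alike was SDF2L1 and DNAJB11 (r = 0.142), a pair that reached 0.827 once group means were taken out. Other pairs went the other way by that measure. HYOU1 turned from 0.249 to -0.639 with MANF and from 0.389 to -0.524 with CALR, while with PDIA4 it fell from 0.795 but stayed above 0, at 0.239. The mean level of the 10 genes, centred per gene on the log2 scale, was -0.11, -0.08 and 0.03 with A8 and ISRIB, -0.14, -0.13 and -0.03 with A8, 0.10 and 0.13 with ISRIB alone, and 0.09, 0.09 and 0.04 with DMSO. Library 3 of both A8 groups was thus the highest of its group, and by this mean it still lay below every library without A8. By the median over the 10 genes, library 3 of A8 with ISRIB, at 0.013, lay above library 3 of DMSO, at 0.0039. Among the 8 genes outside the list whose pattern was most like this mean, of 7593 candidates, were DNAJA1, HNRNPH1, HSPA8, PRPF3, AATF, SRSF11 and MKI67IP, with Pearson r of 0.960 to 0.927 over the 11 libraries. Of these, HSPA8 and SRSF11 were called lower with A8 against DMSO, at log2 fold changes of -0.43 (edgeR adjusted p = 0.0121) and -0.38 (edgeR adjusted p = 0.0315). Over all genes, 0.141% were called in either direction. The alike genes were picked by a mean that was lower in every library with A8, so lower values with A8 follow from that choice.

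Other genes of the same compartment and pathway were set beside the list. Of 28 other ER folding factors, 14 lay above 0 and 14 below in A8 against DMSO, with none called and a median of 0.0017. Their values ran from -0.15 to 0.21, and P4HB, an abundant disulfide isomerase, had 793 ± 39.3 CPM with A8 and 840.0 ± 21.0 CPM with DMSO (SD, n = 3 each), for a log2 fold change of -0.08. With ISRIB present, 18 of the 28 lay below 0, with a median of -0.04. Of 28 genes of ER-associated degradation and the XBP1 arm, 17 lay above 0 in A8 against DMSO, with none called and a median of 0.02, and with ISRIB present 19 of the 28 lay below 0, with a median of -0.07. HERPUD1, a membrane protein of ER-associated degradation, had 75.9 ± 2.77 CPM with A8 and 63.9 ± 0.445 CPM with DMSO. Its log2 fold change of 0.25 (edgeR adjusted p = 0.125) is opposite in sign to that of HSPA5 at almost the same adjusted p. HERPUD1 fell by 0.33 on the log2 scale in A8 with ISRIB against A8 (edgeR adjusted p = 0.0232).

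None of the 14 sensors and activating proteases was called in A8 against DMSO, and their median was 0.06. With ISRIB present 12 of the 14 lay below 0, none was called and the median was -0.05. ATF6 itself had 80.1 ± 3.80 CPM with A8 and 76.8 ± 7.33 CPM with DMSO (SD, n = 3 each), and its log2 fold change was 0.06 (edgeR adjusted p = 0.839). Its relative ATF6B was at 0.16 (adjusted p = 0.407) and XBP1, a factor activated by IRE1 splicing, at 0.12 (adjusted p = 0.564). ERN1, which encodes IRE1, was at 0.22 (adjusted p = 0.738), and EIF2AK3, which encodes PERK, was at 0.13 (adjusted p = 0.726). The proteases that cut ATF6, MBTPS1 and MBTPS2, were at 0.06 and -0.0034. Messenger RNA levels do not report cleavage of ATF6 or splicing of XBP1, neither of which the count table measures.

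The ISR genes and the cytosolic chaperones held genes that did pass the test. All 16 ISR genes lay above 0 in A8 against DMSO, 8 were called higher, and the median was 0.65. In A8 with ISRIB against A8, 9 of the 16 were called lower. Of 15 tested cytosolic chaperones, 14 lay below 0 in A8 against DMSO with a median of -0.11, and HSPA1A, HSPA1B, HSPA8 and DNAJB1 were called lower. HSPA1A, an inducible HSP70 that may share reads with its near-identical copy HSPA1B, had a log2 fold change of -0.55 (edgeR adjusted p = 0.000282). Its effect of A8 differed with ISRIB, with an interaction of 0.63 (edgeR adjusted p = 0.0243), whereas that of HSPA5 had the value of -0.06 given above. With ISRIB, HSPA1A stood at 0.07 and HSPA5 at -0.34. HSPA1A does not stand for all cytosolic chaperones, of which 10 lay below 0 with ISRIB present and 5 above. None of them was called there, their median was -0.10, and HSPA8 was at -0.31.

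**Figure D4:**
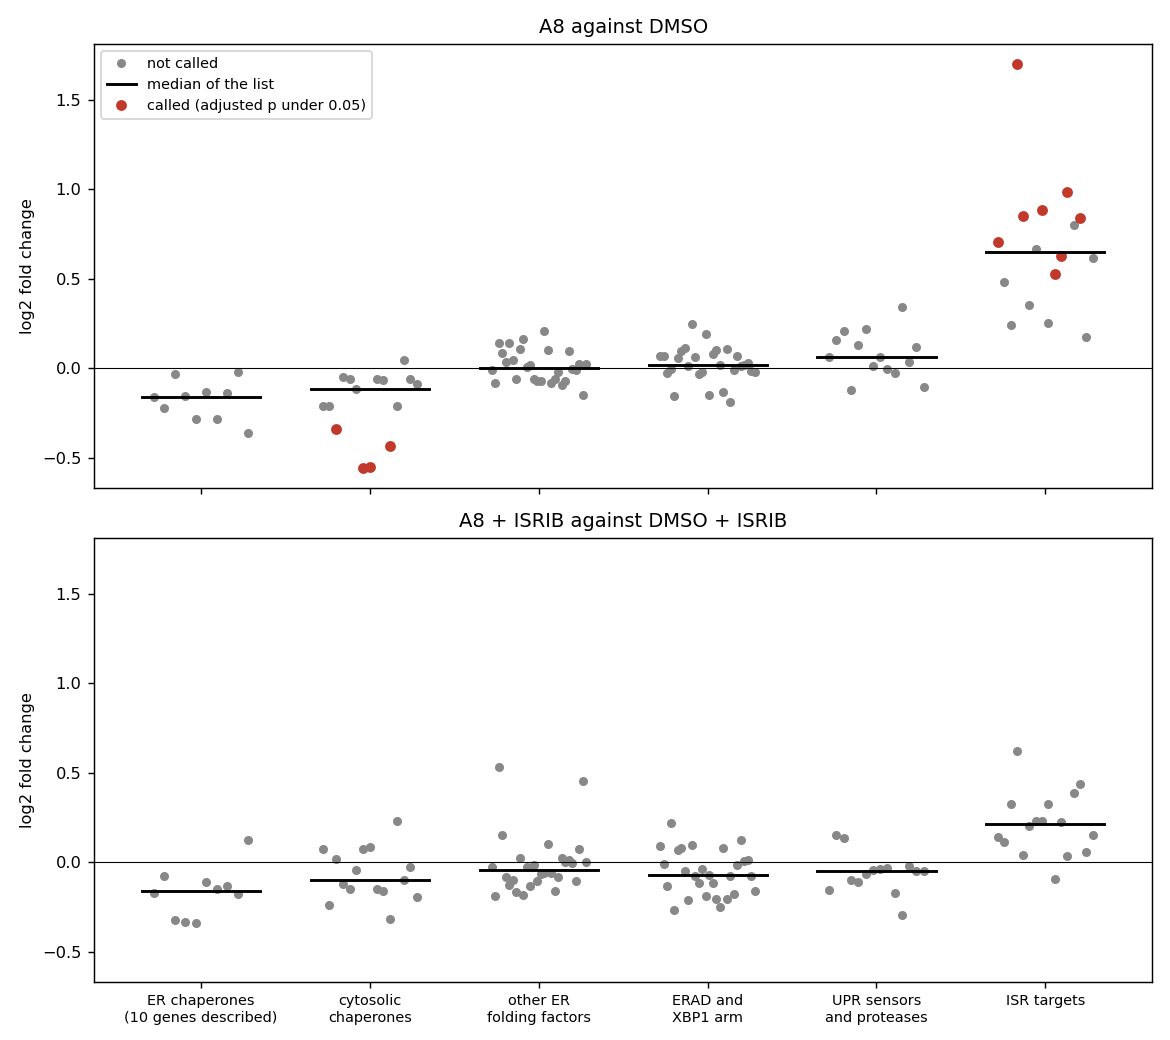
Log2 fold changes of the genes of each list (points, 1 column per list, line at the median, called genes in red) for A8 with ISRIB against ISRIB alone (lower panel) and for A8 against DMSO (upper panel), on the same y scale. The 10 chaperones have a median of -0.16 in both comparisons, and the ISR genes have medians of 0.22 with ISRIB and 0.65 without it.

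Genes outside the list that hold an ERSE or ERSE-II match in the promoter window were set beside the 10. Of 23 such tested genes, 9 lay below 0 in A8 against DMSO, with none called and a median of 0.03, where all 10850 genes with a window had a median of 0.0054. They included HERPUD1 at 0.25 and XBP1 at 0.12, and CANX, a membrane lectin and partner of CALR in function, at -0.08. Within the 10, PDIA4, MANF and DNAJB11 without a match had log2 fold changes of -0.14, -0.28 and -0.03. PDIA6 with a match had -0.02, and the other genes with a match lay between -0.36 and -0.13. With ISRIB, 10 of the 23 lay below 0, with a median of 0.06.

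GC content of the transcripts moved with the comparisons. Across the 13688 genes with a known transcript GC content, 87.8% of those tested, the Spearman correlation of GC content with the log2 fold change was -0.295 in A8 against DMSO, 0.326 in A8 with ISRIB against ISRIB alone and -0.471 in ISRIB alone against DMSO. The 10 genes had a median GC content of 53.4%, against 49.6% over all genes. With offsets for GC content the median of the 10 was -0.16 in A8 against DMSO and -0.16 in A8 with ISRIB against ISRIB alone, as large as without them. SDF2L1, whose transcript has the highest GC content of the 10 at 65.5%, kept a log2 fold change of -0.26 in A8 against DMSO with these offsets, and its interaction was 0.26. Genes on the opposite strand overlap HSP90B1, CALR, PDIA6, DNAJB11, HYOU1 and CRELD2, and the strand setting of the counting is not given in the sources used here, so reads of such partners may be included in their values. On the same strand, a protein-coding gene overlaps DNAJB11, and genes of small RNAs overlap HSP90B1, CALR and PDIA6. No strand setting would separate those.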

How the data were processed

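Polyadenylated RNA of 11 HEK293T libraries was sequenced after libraries with dUTP marking of the second strand were made, per the labels' protocols. The deposited table gives raw whole-number counts by gene symbol, which the authors made on GRCh37, per the submitters' processing notes, which also name DESeq and DESeq2. No aligner, counter or strand setting of the counting is named, and each is not given in the sources used here. The authors also deposited DESeq2 tables with base means (the mean normalized count, a signal), log2 fold changes with standard errors, Wald statistics (a score that was not used here) and p-values, per the file headers.

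Counts were tested in R 4.3.3 with edgeR 4.0.16. Genes were kept by filterByExpr, libraries were scaled by TMM, and 1 quasi-likelihood fit of 4 group means held all 11 libraries, so that the 2 libraries of ISRIB alone shared the spread of the others. p-values were adjusted by Benjamini-Hochberg over 15591 genes and called at an adjusted p under 0.05. Standard errors and 95% intervals came from the F statistic. Levels are TMM-scaled CPM, and transcript and coding lengths came from GENCODE on GRCh38. Likeness is Pearson r of log2 CPM with a prior count of 2, for genes averaging a log2 CPM of 4 or more. The test was checked on simulated counts with known changes, all larger than those of the members and without a GC trend. That check does not cover changes as small as those of the members. Replicates differed by more than sampling noise, so none was counted as a copy. Labels call them biological replicates, and p-values measure the spread between these libraries.

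Each library held at least 34072107 counts, so the members' precision is set by the spread between libraries and not by counting. Alternatives were DESeq2 1.42.0 (size factors and Wald test), other filters, fits of only the groups compared, a replicate block, GC offsets (loess span 0.5) and each library left out. Named genes are the 10 members, ATF6, ATF6B, ERN1, EIF2AK3, XBP1, MBTPS1, MBTPS2, up to 4 genes of each other list that were called or had the smallest p, the yardsticks CHAC1, ASNS and HSPA1A, and the 8 most alike genes, of which 1 is not reported here. CANX was named, and the authors' base means were set beside those of the 11 libraries, after the values were seen. The members and lists were chosen with earlier results of these data known. Protein sequences and coordinates on GRCh37 were not used here.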

Additional observations from a re-analysis of the deposited data

Results flagged for a closer look

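SDF2L1 was flagged because its A8 effect differed with ISRIB. Its interaction was 0.48 on the log2 scale (0.4821), with an unadjusted p of 0.00158 in edgeR and effects on opposite sides of 0, 0.12 with ISRIB and -0.36 without it. The adjusted p was 0.355 in edgeR and 0.0708 in DESeq2, so the difference did not pass over all genes. Over 11 fits that each left out 1 library the interaction lay between 0.40 and 0.56, and with GC offsets it was 0.26. With those offsets the effect of A8 with ISRIB was 0.0069, so the opposite signs rest on a value near 0.

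The authors' deposited tables hold a signal that the 11 libraries do not show. Their base mean, the mean normalized count over the libraries of their fit, was 42605.5 for HSPA5, where the 11 libraries had a mean of 17809.4 and none exceeded 20645.7 after DESeq2 size factors. The ratio of the authors' base mean to that of the 11 libraries was 2.39 for HSPA5, 1.79 for HYOU1, 1.72 for PDIA4 and 1.47 for SDF2L1. Over 11506 genes with a base mean of at least 100 in the 11 libraries the median ratio was 0.963, with 5% of genes below 0.868 and 5% above 1.08. HSPA5 ranked 3 of these genes, HYOU1 ranked 7, PDIA4 ranked 8 and SDF2L1 ranked 19. For 9 of the 10 chaperones the authors' base mean was above the highest of the 11 libraries, the exception being PDIA6 at 9911 against 9932. Which libraries entered the authors' fit is not given in the sources used here, and the source of the difference was not tested.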

How the results depend on the processing

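No member was called by edgeR with DESeq2 size factors, with a minimum of 50 counts or in fits of only the groups compared. In A8 against DMSO the number of members called was 2 with the DESeq2 Wald test (HSPA5 and SDF2L1), 2 without a filter on low counts (the same 2 genes) and 1 with GC offsets (HSPA5). In A8 with ISRIB against ISRIB alone it was 3 with the Wald test, 2 without a filter (HSPA5 and HSP90B1) and 0 to 1 when 1 library was left out. In A8 against DMSO the Wald test called 63 genes higher and 69 lower over all genes, and the fit without a filter called 59 higher and 45 lower, where edgeR with the filter called 13 higher and 9 lower, and 28 higher and 16 lower with GC offsets. The Wald test on A8 with ISRIB against ISRIB alone called 48 genes higher and 20 lower, the fit without a filter 28 higher and 13 lower, and the fit without library 3 of A8 with ISRIB 5 higher and 8 lower, where edgeR with all libraries called 1 higher and 1 lower. The median of the members in A8 with ISRIB against ISRIB alone lay between -0.2254 and -0.1317 when 1 library was left out, the lower value without library 3 of A8 with ISRIB. In A8 against DMSO it lay between -0.1818 and -0.1441.

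No pairing of the libraries by replicate number was seen. The correlation of same-numbered deviations was between -0.133 and 0.138, and only 1 of 9 pairs exceeded 0.1. Libraries with different numbers gave -0.12 to 0.154. Noise over all genes lowers such correlations, so a weak pairing could have been missed. With a replicate block, on the 9 libraries whose columns carry the labels' numbers, no member was called, the median in A8 against DMSO was -0.1585 and 15 genes were called in all, against 19 on the same libraries without the block. In A8 with ISRIB against DMSO the block gave 0 calls against 3, and in A8 with ISRIB against A8 it gave 15 against 25.

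Signs turned with GC offsets in ISRIB alone against DMSO for CRELD2 (0.0633), PDIA4 (0.00023) and SDF2L1 (0.0040), in A8 with ISRIB against DMSO for SDF2L1 (0.011), and in the interaction for HSPA5 (0.0094), HYOU1 (-0.024) and PDIA4 (-0.015). Leaving out 1 library turned the sign of values near 0. In A8 against DMSO, DNAJB11 lay between -0.0974 and 0.0327 and PDIA6 between -0.0698 and 0.0109. In ISRIB alone against DMSO, CRELD2 lay between -0.104 and 0.0060, MANF between -0.0111 and 0.0788 and PDIA4 between -0.0348 and 0.0125. In A8 with ISRIB against DMSO, SDF2L1 lay between -0.114 and 0.0397. In A8 with ISRIB against A8, HSPA5 lay between -0.0274 and 0.0716 and PDIA6 between -0.0857 and 0.0183. In the interaction, CALR lay between -0.0604 and 0.0317, HYOU1 between -0.0120 and 0.0565 and PDIA4 between -0.0249 and 0.0225. Leaving out 1 library of ISRIB alone left a single library, assumed to vary like the other groups. The cause of these changes was not tested.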

Other observations

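The authors' base means also exceeded those of the 11 libraries for the other 6 chaperones, by ratios of 1.41 for HSP90B1, 1.38 for MANF, 1.24 for DNAJB11, 1.25 for CRELD2, 1.18 for CALR and 1.10 for PDIA6. The rank of these among the 11506 genes ran from 24 for HSP90B1 to 346 for PDIA6. The fold changes of the authors' deposited table for A8 against DMSO were close to those of the present fit all the same, at -0.28 for HSPA5, -0.36 for SDF2L1 and -0.28 for MANF.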
